A study of Mus musculus with 16 samples.

Results

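The myelin genes described here are Mbp, Mog, Mag, Mobp, Cnp, Cldn11, Opalin, Ermn and Mal, 9 genes whose proteins build or sit in the myelin sheath. They were taken by symbol from the 55385 genes of the deposited count table, by a rule that sets no threshold on their values, and all 9 were found. All 9 also passed the filter on low counts that left 16684 genes for testing. Bulk hippocampus of mice aged 5 months was measured by sequencing of polyadenylated RNA in 16 libraries, 4 per genotype. The wild-type group was C57BL/6J. Dp16 mice carry a duplicated segment of mouse chromosome 16 and serve as a model of Down syndrome. 5xFAD mice carry human transgenes with familial Alzheimer disease mutations, driven in neurons by the Thy1 promoter. The 5xFAD-Dp16 group carries both. Wild-type, Dp16 and 5xFAD each had 2 male and 2 female libraries, and all 4 libraries of 5xFAD-Dp16 were male. Since the labels do not name the mouse behind a library, p-values cover only the spread among these libraries, which may be technical. Library totals ranged from 15.8 to 25.0 M counts (M, mega).

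Myelin in the brain is made by oligodendrocytes, which wrap axons in many layers of membrane so that impulses travel fast. Compact myelin is held together by basic proteins on its inner membrane faces, while adhesion molecules line the surface that meets the axon. The hippocampus is a grey matter region with myelinated fibre tracts along its borders, and the adjoining thalamus and midbrain hold more myelin. In bulk tissue, fewer cells of a type and less RNA per cell cannot be told apart.

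RefSeq promoter sequences (GRCm38.p6) were matched for 8 of the 9 genes. The 250 bases before the start are printed for Mog, Ermn and Opalin, because Mog and Ermn were among the members that varied with the tissue content of a library and Opalin was the member that followed the others least. All 3 are on the minus strand and are written 5′ to 3′ along the gene, at chr17:37023399-37023648, chr2:58052865-58053114 and chr19:41077114-41077363. Capitals mark matches on either strand to CTGGNAC, a motif of the oligodendrocyte factor MYRF, and to ACAANG, a core of the SOX motif.
Mog: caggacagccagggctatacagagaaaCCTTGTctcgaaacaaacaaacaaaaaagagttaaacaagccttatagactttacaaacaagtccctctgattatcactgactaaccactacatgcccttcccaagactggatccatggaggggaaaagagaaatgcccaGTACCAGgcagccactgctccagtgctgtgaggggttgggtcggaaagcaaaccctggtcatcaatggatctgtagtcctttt
Ermn: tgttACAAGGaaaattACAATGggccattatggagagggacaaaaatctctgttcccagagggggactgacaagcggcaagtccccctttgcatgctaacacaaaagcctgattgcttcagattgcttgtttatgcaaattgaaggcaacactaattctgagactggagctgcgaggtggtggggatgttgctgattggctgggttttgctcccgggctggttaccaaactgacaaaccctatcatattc
Opalin: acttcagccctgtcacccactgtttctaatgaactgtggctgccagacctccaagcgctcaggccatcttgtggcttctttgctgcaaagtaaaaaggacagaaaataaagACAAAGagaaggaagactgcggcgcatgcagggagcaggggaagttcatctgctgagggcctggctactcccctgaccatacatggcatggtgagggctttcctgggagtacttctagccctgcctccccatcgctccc
The Mog window held 1 match to the MYRF motif and 1 to the SOX motif. The Ermn window held 2 SOX matches and the Opalin window 1, with no MYRF match in either. Of the other windows, first listed per gene, those of Mag (2 and 2 matches) and Cnp (2 and 1) held both motifs, that of Mobp held 6 SOX matches only, and those of Cldn11 and Mal held neither. Over all 32851 mouse promoter windows of this length, 16.1% held the MYRF motif and 36.3% the SOX motif. The windows of Mag, Mobp and Cnp, placed by the RefSeq start, reach past the start of the GENCODE gene. A match is a run of letters and shows no binding.

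The 9 genes lie on 8 chromosomes (GRCm38, GENCODE annotation). Mbp spans chromosome 18 from 82475146 to 82585637, Mog chromosome 17 from 37010743 to 37023398, Mag chromosome 7 from 30899176 to 30914873 and Mobp chromosome 9 from 120149707 to 120181484. Cnp spans chromosome 11 from 100574904 to 100591729, Cldn11 chromosome 3 from 31149920 to 31164324 and Opalin chromosome 19 from 41061710 to 41077113. Ermn and Mal both lie on chromosome 2, from 58045113 to 58052864 and from 127633226 to 127656695. None lies on chromosome 16, so the Dp16 duplication adds no copy of them.

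The genes differed widely in level. Compared per length, as deposited RPKM over all 16 libraries, Mbp, the basic protein that binds the inner faces of compact myelin, was highest at 413 ± 103 (SD, n = 16). Cnp, an enzyme of uncompacted myelin, followed at 148 ± 20.3, and Mal, a proteolipid of membrane traffic, at 104 ± 21.7. Mag, an adhesion molecule facing the axon, stood at 83.4 ± 21.6 and Cldn11, the claudin of myelin tight junctions, at 82.0 ± 13.1, a difference smaller than either spread. Mobp, a small basic protein, was at 53.1 ± 10.7. Mog, on the outermost myelin surface, was at 30.6 ± 7.39 and Ermn, a regulator of the oligodendrocyte cytoskeleton, at 25.9 ± 7.62, again within the spread. Opalin, a glycoprotein of the oligodendrocyte membrane, was lowest at 14.2 ± 3.64. The 9 genes together took from 0.333% of all counts, in wild-type 3, to 0.761%, in 5xFAD-Dp16 3, where the number after a genotype is the replicate.

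Cnp overlaps Dnajc7 on the opposite strand, a gene with 42.1% as many counts, and Mobp overlaps the transcript Gm38642 on the same strand, with 6.66% as many. The kit kept strand, but the strand setting of the counting was not given in the sources used here. Reads of Cnp and Dnajc7 therefore cannot be assigned with certainty.

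Some libraries stood apart in their tissue content, scored as the mean over a marker list of log2 CPM (counts scaled to library size) minus its mean over the 16 libraries. The midbrain and hypothalamus score was 3.43 in wild-type 4, 3.44 in 5xFAD 2 and 2.09 in 5xFAD-Dp16 3. It was 0.27 in 5xFAD 4 and -0.35 or lower in 12 libraries. The summed CPM of its 20 markers was 338, 401 and 108 in the first 3, 28.8 in 5xFAD 4, and from 6.38 to 17.6 elsewhere, where 5 to 15 of the markers were at 0. The thalamus score was highest in 5xFAD 4, at 1.33. The same 4 libraries had the lowest scores of the CA1 pyramidal layer list, from -0.96 in wild-type 4 to -0.51 in 5xFAD 2, against -0.08 to 0.44 in the other 12.

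Mbp lay at 2971, 3347, 2464 and 3730 CPM in wild-type, replicates 1 to 4 in order here and below. It lay at 3223, 2725, 2728 and 2716 in Dp16, at 3514, 4286, 3039 and 4061 in 5xFAD, and at 3121, 3065, 5262 and 3013 in 5xFAD-Dp16. The ranges of 5xFAD and wild-type overlapped, and the Dp16 libraries lay close together. In 5xFAD-Dp16, replicate 3 stood far above 3 libraries that differed little, and that library was the highest of the 16 in 8 of the 9 genes. The exception was Opalin, highest in 5xFAD 4 at 40.7 CPM. Wild-type 3 was lowest in 8 of 9, the exception being Ermn, lowest in Dp16 3 at 61.0 CPM. The ratio of the highest to the lowest library ran from 1.64 for Cnp to 2.60 for Opalin.

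**Figure D1:**
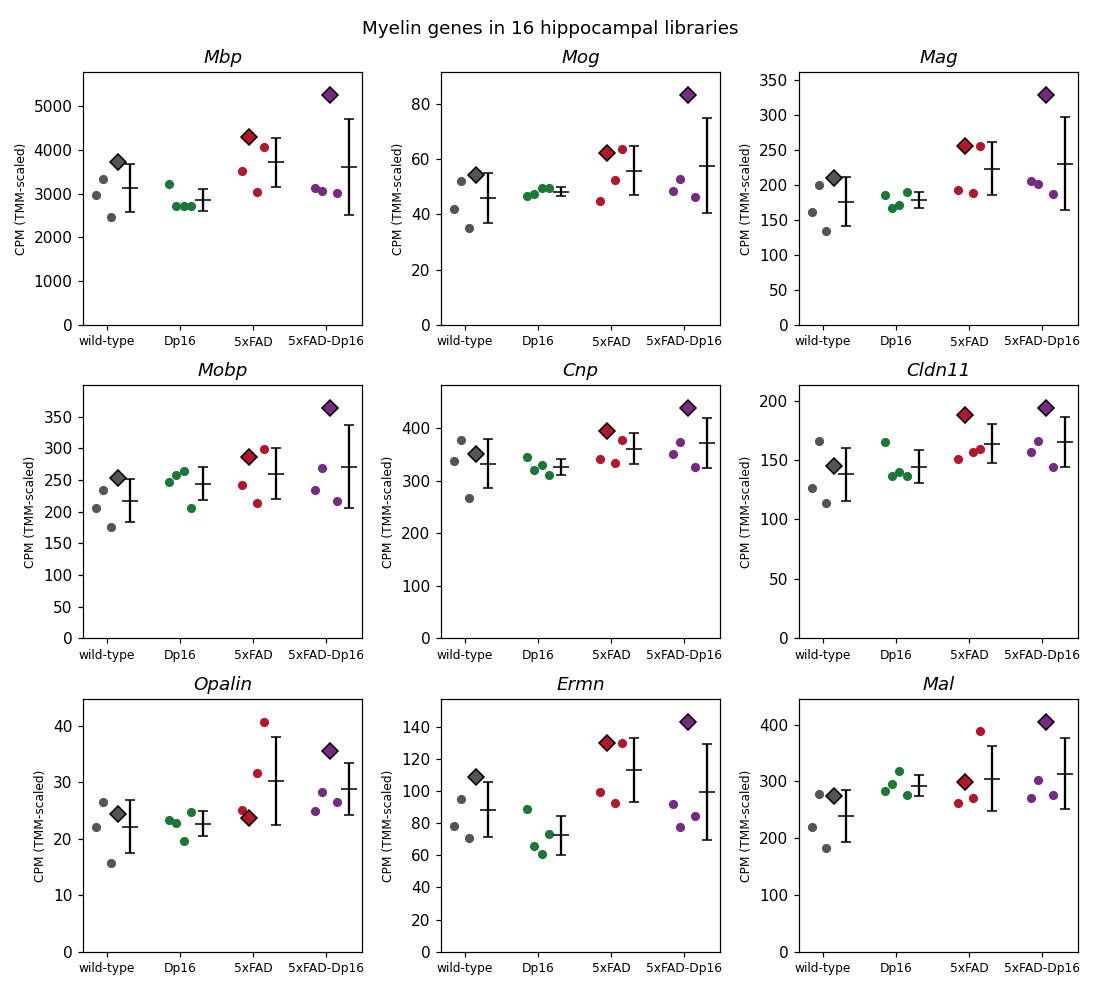
CPM (TMM-scaled) of each myelin gene in the 4 genotypes, 1 point per library in replicate order, with the group mean and SD (n = 4) at the right of each group; diamonds are libraries with a midbrain and hypothalamus score above 1. 5xFAD-Dp16 3 is the highest of all libraries in 8 of the 9 panels, and the wild-type and 5xFAD ranges overlap in all 9.

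In 5xFAD against wild-type, which asks what the transgenes change, all 9 genes were higher and none passed at an adjusted p below 0.05, where 0.971% of all tested genes passed. At an unadjusted p below 0.05, 3 of 9 passed (Opalin, Cldn11 and Mal), against 8.85% of all genes. The median log2 difference of the 9 was 0.29, against 0.02 over all genes, of which 53.5% were higher. Opalin had the largest value. It lay at 22.1, 26.5, 15.7 and 24.4 CPM in wild-type and at 25.0, 23.7, 31.6 and 40.7 in 5xFAD. The groups overlapped, with the 2 highest values in 5xFAD 3 and 4 and the lowest in wild-type 3. The fitted difference of Opalin was log2 0.45 ± 0.18 (SE; edgeR quasi-likelihood adjusted p = 0.471). Ermn followed at 0.37 ± 0.18 (adjusted p = 0.568), from 88.2 ± 17.1 to 113 ± 19.8 CPM (SD, n = 4). Cnp had the smallest difference, 0.12 ± 0.11, with a 95% interval from -0.12 to 0.36.

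The size of this difference moved with single libraries. Over the runs that left out 1 library each, the median of the 9 ranged from 0.20, without wild-type 3, to 0.41, without 5xFAD 1. Leaving out the 3 libraries high in the midbrain and hypothalamus list gave 0.32, and leaving out these and 5xFAD 4, a choice made after the scores were seen, 0.18. With the tissue scores as model terms it was 0.23, and in males only 0.53. In every one of these runs all 9 genes were higher in 5xFAD and none passed. Microglial genes moved with the same contrast: 12 of 12 markers were higher and 10 passed, and their summed level was 567 to 653 CPM in wild-type and 1186 to 1755 in 5xFAD, with none at 0. The part of tissue content and of microglia in the myelin values was not tested beyond these runs.

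In 5xFAD-Dp16 against wild-type all 9 genes were again higher, with a median log2 difference of 0.37 against -0.0043 over all genes, and none passed (1.01% of all genes did). At an unadjusted p below 0.05 there were 3, Cldn11, Mag and Mal, against 6.38% of all genes. Mag lay at 161, 201, 134 and 209 CPM in wild-type and at 205, 202, 329 and 187 in 5xFAD-Dp16. Of the latter, 3 lay within the wild-type range and replicate 3 lay above it. The fitted difference of Mag was log2 0.51 ± 0.19 (adjusted p = 0.463), the largest of the 9, and Cldn11 had 0.37 ± 0.12 (adjusted p = 0.331). The fit takes its sex term from the other genotypes, since 5xFAD-Dp16 was all male. Female against male, it was log2 0.21 for Mag and 0.20 for Cldn11. With the 3 libraries high in midbrain genes left out, 5xFAD-Dp16 3 among them, the median was 0.23 with all 9 still higher. Without 5xFAD-Dp16 3 alone it was 0.19. With no low-count filter, Mag passed, in a run whose share of all genes that passed is not given here.

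In 5xFAD-Dp16 against Dp16, which compares carriers and non-carriers of the transgenes within the duplication, all 9 genes were higher by a median of 0.31 (0.02 over all genes) and none passed, against 0.845% of all genes. At an unadjusted p below 0.05 there were 4, Mbp, Mag, Cldn11 and Ermn, where the share of all genes was 8.57%. Ermn lay at 88.9, 66.1, 61.0 and 73.5 CPM in Dp16 and at 91.8, 77.8, 143 and 84.3 in 5xFAD-Dp16. The ranges overlapped between 77.8 and 88.9. Ermn differed by log2 0.60 ± 0.19 (adjusted p = 0.261) and Mbp by 0.45 ± 0.19 (adjusted p = 0.514). These fitted values depend on a sex term taken from the other genotypes, since 5xFAD-Dp16 had no females. That term, female against male, was log2 0.28 for Ermn and 0.21 for Mbp. Without 5xFAD-Dp16 3, Ermn was at 0.38, Mbp at 0.21 and Mag at 0.25, and 8 of the 9 genes were higher, with a median of 0.21. Opalin was the 1 gene whose groups did not overlap, at 23.4, 22.8, 19.6 and 24.8 CPM in Dp16 and 24.9, 28.3, 35.4 and 26.5 in 5xFAD-Dp16; among all genes 5.74% did not overlap. With no low-count filter, Mag and Ermn passed, in a run whose share of all genes that passed is not given here. With the 3 libraries high in midbrain genes left out, the median was 0.18 and 7 of 9 were higher. The comparisons of 5xFAD-Dp16 share its libraries, and the one against wild-type also shares the wild-type libraries with 5xFAD against wild-type. Comparisons that share libraries are not separate evidence. The one against Dp16 shares no library with 5xFAD against wild-type, but both take spread and sex term from the same fit.

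**Figure D2:**
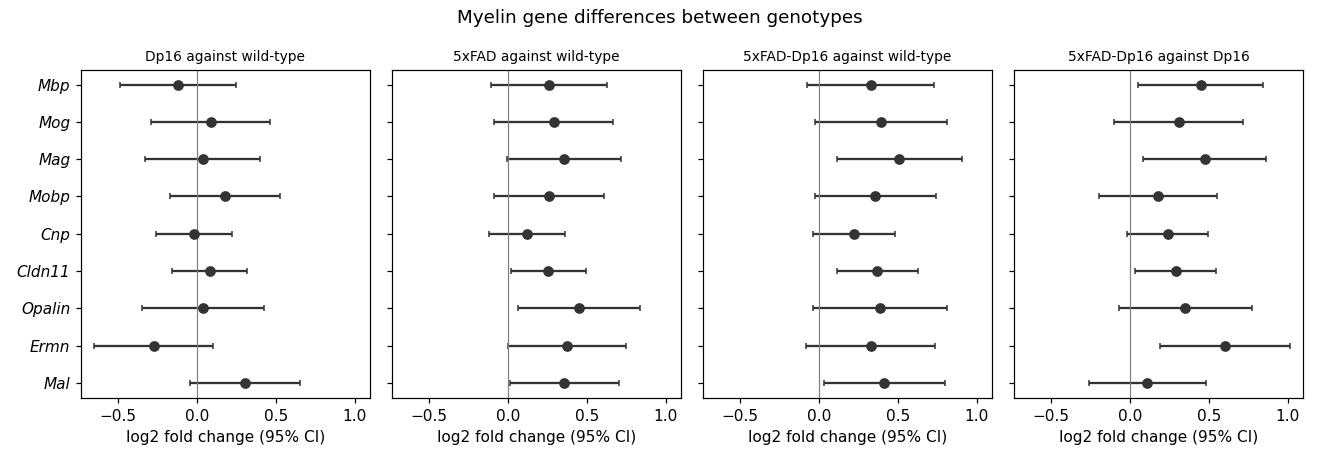
Fitted log2 fold change of each myelin gene with its 95% confidence interval (edgeR, 16 libraries, genotype and sex as terms) in 4 comparisons. Values in Dp16 against wild-type lie on both sides of 0, from -0.28 to 0.30, and those in the other 3 comparisons lie above 0 with intervals that mostly reach it.

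In Dp16 against wild-type the genes did not move as a group. Of the 9, 6 were higher and 3 lower, with a median of 0.04 (-0.01 over all genes), and none passed, as did 0.0839% of all genes. None had an unadjusted p below 0.05 either, a mark that 3.31% of all genes met. Mal was at 221, 278, 182 and 274 CPM in wild-type and at 283, 295, 318 and 275 in Dp16. Dp16 4 alone lay within the wild-type range. The difference was log2 0.30 ± 0.16 (adjusted p = 0.990). Ermn lay at 78.2, 95.2, 70.8 and 109 CPM in wild-type, and its difference was -0.28 ± 0.18 (adjusted p = 0.990), with a 95% interval from -0.65 to 0.10. Mbp was at -0.12 ± 0.17, and the other 6 were between -0.02 and 0.18. Mbp and Cnp changed sign with the tissue scores as terms and in males only.

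The shares of single genes among the 9 were also compared. Of the counts of the 9 genes, Mbp made up 71.3% ± 0.97 in wild-type (SD, n = 4) and 68.1% ± 1.34 in Dp16. In the carriers of the transgenes it made up 71.1% ± 1.4 without the duplication and 69.8% ± 2.08 with it. The Dp16 libraries, at 66.8% to 70.0%, lay just below the wild-type libraries, at 70.1% to 72.4%. The ratio of Mal to Ermn CPM, a pair singled out after the values were seen and so given with no test, was 2.71 ± 0.19 in wild-type and 4.15 ± 0.88 in Dp16. With the transgenes it was 2.71 ± 0.32 in 5xFAD alone and 3.24 ± 0.48 in the cross. It ran from 3.18 to 5.20 in Dp16 and from 2.52 to 2.92 in wild-type. The libraries high in midbrain genes had the lowest ratio of their groups: 2.52 in wild-type 4, 2.30 in 5xFAD 2 and 2.83 in 5xFAD-Dp16 3. They also had the highest Mbp share of their groups, at 72.4%, 72.3% and 72.6%. Dp16 had no such library, and the part of tissue content in these shares and ratios was not tested.

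In 5xFAD-Dp16 against 5xFAD, the duplication in the presence of the transgenes, differences ran from log2 -0.06 to 0.15 with a median of 0.09. None passed, against 0.0539% of all genes, and none had an unadjusted p below 0.05, against 3.28%. The 95% intervals of the 9 genes reached from -0.47 for Opalin to 0.54 for Mag, and those of Cnp and Cldn11 were the narrowest, from -0.16 to 0.36 and from -0.14 to 0.37. Once the 3 libraries high in midbrain genes were left out, the median was -0.12. The interaction, which asks whether the effect of the duplication differs with the transgenes, ran from -0.25 for Mal to 0.23 for Ermn. None of the 9 passed, nor did any gene (0% of all), and none of the 9 had an unadjusted p below 0.05, where 1.99% of all genes did.

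The fitted sex term, with genotype in the model, was higher in females for all 9 genes, by log2 0.02 to 0.28. Over all genes 49.4% were higher, with a median of -0.0021. None of the 9 passed (0.048% of all genes did). Cldn11 alone had an unadjusted p below 0.05, against 5.84% of all genes. Of 216 values of the 9 genes over the other runs, 15 had the other sign. Tissue markers moved with sex as well: 9 of 9 tested midbrain and hypothalamus genes were higher in females (median 2.11), as were 11 of 11 genes of meninges and fibroblasts (median 0.93), while 0 of 8 CA1 genes were, and none of these passed. Wild-type 4 and 5xFAD 2, high in midbrain genes, were female. Higher in females were 7 of the 9 myelin genes without the 3 libraries high in midbrain genes, 9 without these and 5xFAD 4, and 5 with the tissue scores as terms. The difference between females and males in the 5xFAD effect was negative in all 9, from -0.97 for Opalin to -0.18 for Cnp, with none past the threshold, as in all genes (0%). Opalin, Mal and Mog had an unadjusted p below 0.05, against 14.9% of all genes. Among males, Opalin was at 22.1 and 15.7 CPM in wild-type and 31.6 and 40.7 in 5xFAD. Among females it was at 26.5 and 24.4 in wild-type and 25.0 and 23.7 in 5xFAD. The difference of the 2 effects was -0.97 ± 0.26 (adjusted p = 0.330), on 2 libraries per sex and genotype. With no low-count filter Opalin passed, in a run whose share of all genes that passed is not given here. One of the 2 5xFAD males was 5xFAD 4, the library with the highest thalamus score. Over the runs that left out 1 library each, 5xFAD 4 included, the median of the 9 for this difference ranged from -0.61 to -0.19. The part of tissue content in it was not tested beyond the alternative runs.

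The myelin genes varied with the tissue content of the libraries. With genotype and sex in the model, all 9 had a positive slope on the midbrain and hypothalamus score and 4 rose with it: Mog by log2 0.12 ± 0.04 per unit of score (adjusted p = 0.0353), Ermn by 0.12 ± 0.04 (adjusted p = 0.0381), Mag by 0.11 ± 0.03 (adjusted p = 0.0398) and Mbp by 0.11 ± 0.04 (adjusted p = 0.0410). Of all genes 13.8% passed, in both directions, and 32.2% had an unadjusted p below 0.05, as did 5 of the 9 myelin genes. Opalin had the lowest slope, 0.03 ± 0.05, with Cldn11 and Cnp at 0.04 ± 0.03 each. The 4 calls depended on single libraries: none was left without wild-type 4, without 5xFAD-Dp16 1, 2 or 3, or without 5xFAD 1 or 3, while 6 passed without wild-type 2 or without 5xFAD 2. Without Dp16 2, 1 passed, and without wild-type 3, Dp16 1, Dp16 3 or 5xFAD-Dp16 4, 2 passed. Adding the score lowered the residual SD of Mbp from 0.25 to 0.19 log2 and that of Mag from 0.26 to 0.20, while that of Opalin went from 0.29 to 0.30; the median over all genes went from 0.26 to 0.22.

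The list of CA1 pyramidal layer genes, tried after the scores were seen, ran the other way. All 9 slopes were negative and 6 genes fell as it rose: Ermn by log2 -0.53 ± 0.10 per unit (adjusted p = 0.000729), Mag by -0.47 ± 0.11, Mbp by -0.48 ± 0.11, Mog by -0.48 ± 0.12, Mobp by -0.39 ± 0.12 and Mal by -0.39 ± 0.11. This score moved with much of the transcriptome, as 38.4% of all genes passed. Cnp, Cldn11 and Opalin did not pass (adjusted p from 0.139 to 0.387). Over the 16 libraries the mean of the 9 genes had Pearson correlations of -0.70 with the CA1 score, 0.57 with the midbrain and hypothalamus score, 0.54 with the thalamus score and 0.54 with the microglia score; these are descriptions of scores from the same libraries.

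**Figure D3:**
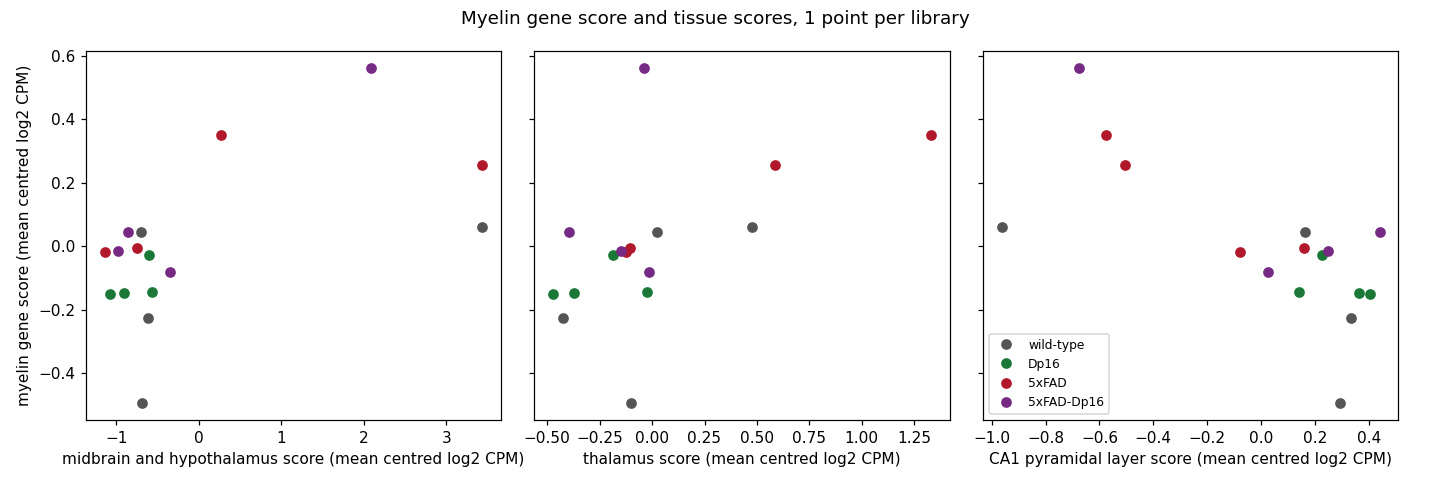
Mean of the 9 myelin genes (mean centred log2 CPM) against the midbrain and hypothalamus, thalamus and CA1 pyramidal layer scores, 1 point per library, coloured by genotype. The highest myelin value, 0.56, is 5xFAD-Dp16 3, and the lowest, -0.49, is wild-type 3, whose 3 tissue scores lie among those of the other libraries.

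**Figure D4:**
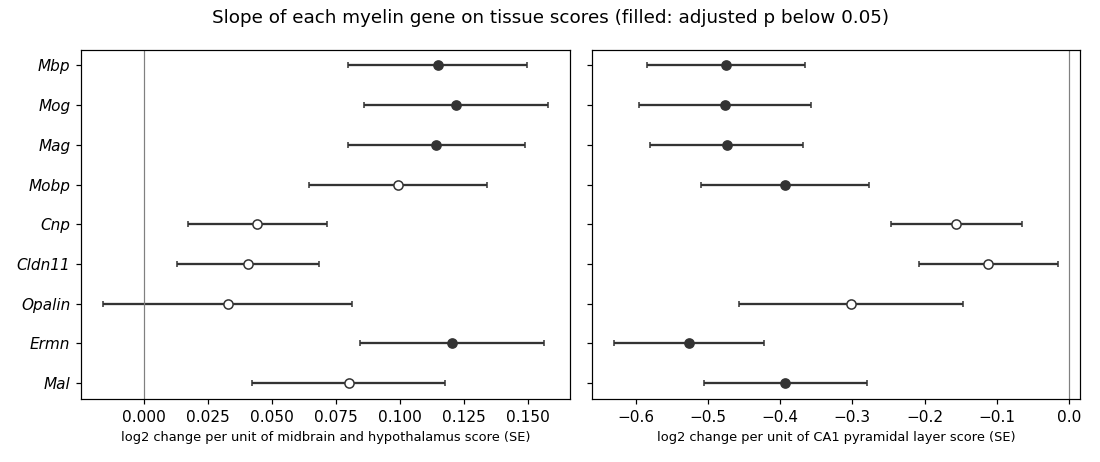
Slope of each myelin gene on the midbrain and hypothalamus score (left) and the CA1 pyramidal layer score (right) with its SE, from edgeR models with genotype and sex; filled points passed at an adjusted p below 0.05. Slopes are positive on the left and negative on the right, and Cnp, Cldn11 and Opalin are open in both.

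The 4 libraries that stood apart in tissue content had the 4 highest mean myelin scores of the 16: 0.56 in 5xFAD-Dp16 3, 0.35 in 5xFAD 4, 0.25 in 5xFAD 2 and 0.06 in wild-type 4. The size of the myelin score did not follow that of the midbrain and hypothalamus score among them. Wild-type 4, at 3.43 on that score, had a myelin score close to the 0.04 of wild-type 2, whose tissue score was -0.70. 5xFAD-Dp16 3, with a lower tissue score of 2.09, had the highest myelin score, 0.56. Wild-type 3 had the lowest myelin score, -0.49, with a tissue score of -0.69 like those of wild-type 1 and 2. Wild-type 4 also had the highest striatum score, 1.88.

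The 9 genes followed each other across libraries. Pearson correlations of their log2 CPM over the 16 libraries ran from 0.53 for Ermn with Mal to 0.96 for Mog with Mag, and within genotype and sex Ermn with Mal had 0.77. Opalin had between 0.61 and 0.77 with the other 8. By the rule for named genes, those outside the 9 most like their mean profile included Bcas1 (0.96), which marks newly formed oligodendrocytes, Tmem88b (0.95), Galnt6 (0.94), Ppp1r14a (0.93), Trf (0.92), which encodes transferrin, Pheta1 (0.92), Pllp (0.91), Plekhb1 (0.91) and Akr1b10 (0.91), each over 16 libraries.

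Other genes of the oligodendrocyte lineage were read from lists. Of 32 other myelin and mature oligodendrocyte genes, 28 were higher in 5xFAD than in wild-type (median 0.26) and 1 passed, against 0.971% of all genes. That gene was Cd9, a tetraspanin of the myelin membrane that activated microglia also express. Cd9 lay at 53.8, 81.4, 64.8 and 75.2 CPM in wild-type and 156, 132, 147 and 158 in 5xFAD. The groups did not overlap, as was so for 4.53% of all genes in this comparison. Cd9 rose by log2 1.12 ± 0.13 (adjusted p = 0.000132). It also rose in 5xFAD-Dp16 against wild-type (0.85 ± 0.14, adjusted p = 0.00554) and against Dp16 (1.02 ± 0.14, adjusted p = 0.000977), and its slope on the midbrain and hypothalamus score was 0.01 ± 0.03. The microglial markers given above moved in the same comparisons, and their part in the Cd9 counts was not tested. In Dp16 against wild-type 8 of the 32 were higher (median -0.05) and none passed. On the midbrain and hypothalamus score 12 of the 32 rose and none fell, where 13.8% of all genes passed.

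Of 15 genes of myelin lipid synthesis, 13 were higher in 5xFAD (median 0.24) and all 15 in 5xFAD-Dp16 against wild-type (median 0.28), and none passed in either. Gltp, which encodes a glycolipid transfer protein, was at 0.33 ± 0.11 in 5xFAD (adjusted p = 0.279), and Elovl1, an enzyme of very long chain fatty acids, at 0.40 ± 0.13 (adjusted p = 0.282). Oligodendrocyte precursor genes did not follow: 4 of 14 were higher in 5xFAD (median -0.09), 5 of 14 in 5xFAD-Dp16 against wild-type (median -0.02), and none passed. Matn4 had the smallest p of that list in 5xFAD, at -0.32 ± 0.13 (adjusted p = 0.471). Of 10 genes of newly formed oligodendrocytes, 8 were higher in 5xFAD (median 0.10) and none passed.

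Among 16 genes reported in disease-associated oligodendrocytes, 12 were higher in 5xFAD (median 0.34) and 3 rose, against 0.971% of all genes that passed. They were C4b, a complement component, by log2 1.5 ± 0.26 (adjusted p = 0.00717), B2m, the light chain of MHC class I, by 1.05 ± 0.10 (adjusted p = 1.41e-05), and H2-D1, an MHC class I heavy chain, by 1.02 ± 0.12 (adjusted p = 0.000210). Microglia and astrocytes express these 3 as well, and C4b and H2-D1 have near-identical copies that can share reads. B2m was at 92.8, 112, 107 and 120 CPM in wild-type and at 263, 230, 226 and 178 in 5xFAD. The same 3 rose in 5xFAD-Dp16 against wild-type, by 1.14 for B2m, 1.25 for H2-D1 and 1.74 for C4b. In 5xFAD-Dp16 against Dp16, B2m rose by 0.91 and H2-D1 by 0.92, while C4b, at 1.16, did not pass (adjusted p = 0.0749). In Dp16 against wild-type B2m was at 0.23, H2-D1 at 0.33 and C4b at 0.58, and none of these passed (adjusted p = 0.990 for each). Of 8 genes of Schwann cells, which make peripheral myelin, 6 could be tested and none passed in the genotype comparisons. The summed level of the 8 was 76.7 to 92.7 CPM in wild-type and 98.3, 142, 90.2 and 80.9 in 5xFAD 1 to 4. The highest value was that of 5xFAD 2, a library high in midbrain genes.

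Of 12 oligodendrocyte transcription factors, 6 were higher in 5xFAD against wild-type (median 0.03), 10 in 5xFAD-Dp16 against wild-type (median 0.22), and none passed in either. Olig1 and Olig2, which direct oligodendrocyte fate and lie in the segment duplicated in Dp16, were at 0.19 ± 0.11 and 0.07 ± 0.16 in Dp16 against wild-type (adjusted p = 0.990 for each). In 5xFAD-Dp16 against wild-type Olig1 was at 0.43 ± 0.12 (adjusted p = 0.129). In 5xFAD-Dp16 against Dp16, 1 factor passed, Nkx2-2, which acts in oligodendrocyte differentiation and is named after its values were seen. Nkx2-2 lay at 5.61, 3.94, 2.64 and 6.19 CPM in Dp16 and 7.69, 8.72, 12.6 and 7.99 in 5xFAD-Dp16. The groups did not overlap, as was so for 5.74% of all genes, and the fitted rise was log2 1.32 ± 0.26 (adjusted p = 0.0198). That fit takes its sex term from the other genotypes, since 5xFAD-Dp16 had no females. For Nkx2-2 the term, female against male, was log2 0.55 ± 0.19. Against wild-type, Nkx2-2 was at -0.82 ± 0.23 in Dp16 (adjusted p = 0.787), at 0.15 ± 0.23 in 5xFAD and at 0.51 ± 0.25 in 5xFAD-Dp16 (adjusted p = 0.820). Its slope on the midbrain and hypothalamus score was 0.14 ± 0.05 (adjusted p = 0.0756).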

How the data were processed

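The authors deposited raw read counts per gene and RPKM values (counts per kilobase of gene and mega-count of library) for hippocampal poly-A RNA. Per the submitters' processing notes, bcl2fastq, FastQC 0.11.5, HISAT2 2.1.0, SAMtools 1.5 and HTSeq 0.6.1 were used with GRCm38. The deposited RPKM values were a rescaling of the deposited counts in 27505 of 27505 genes checked (relative tolerance 1e-06). No library pair was identical.

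Counts were analysed with edgeR 4.0.16 in R 4.3.3: default low-count filter by group, TMM scaling, robust quasi-likelihood fit over all 16 libraries with genotype and sex as terms, and Benjamini-Hochberg adjustment over all 16684 genes tested, with a threshold of 0.05. The sex difference of the 5xFAD effect used the 12 libraries of 3 genotypes, with 16416 genes tested and adjusted over. 5xFAD-Dp16 has no females, so its comparisons take the sex effect of the other genotypes. The SE is the log2 change divided by the square root of F. CPM are TMM-scaled, and scores used a prior count of 2. Named genes were the 9 members, Olig1, Olig2, up to 4 genes per lineage list with the smallest p in 5xFAD against wild-type, and the 10 genes most like the mean profile; 1 gene under this rule is not reported here. The members and lists were chosen with earlier results of these data known. The alternatives used DESeq2 1.42.0, limma 3.58.1, other scaling, filters, terms and sets of libraries.

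On simulated data for 5xFAD against wild-type over 16684 genes with 200 changed, the share of changed genes found was 4% at 1.3-fold, 26% at 1.5-fold and 62% at 2-fold.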

Additional observations from a re-analysis of the deposited data

Results flagged for a closer look

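With 4 libraries per group, 36 sets of values (9 genes in 4 genotypes) were screened for a library far from the rest of its group by Dixon's ratio, and chance marks about 1 in 20. There were 4 such values. The 9 genes followed each other across libraries, so the 36 sets are not independent and this count cannot be set against that rate. In 5xFAD-Dp16, replicate 3 was at 5262 CPM for Mbp, where the nearest library was at 3121, and at 329 CPM for Mag, where the nearest was at 205. This library has a midbrain and hypothalamus score of 2.09. In Dp16, replicate 1 was at 3223 CPM for Mbp, with the nearest library at 2728, and at 165.5 CPM for Cldn11, with the nearest at 139.9. Its midbrain and hypothalamus score, -0.61, was within the range of the other Dp16 libraries.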

How the results depend on the processing

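With no low-count filter the number of myelin genes called was 1 in 5xFAD-Dp16 against wild-type, 2 in 5xFAD-Dp16 against Dp16 and 1 for the sex difference of the 5xFAD effect, where none was called with the filter. The share of all genes called in these runs is not given here, so these counts cannot be read as results about the myelin genes. The 4 calls on the midbrain and hypothalamus score became 0 with the replicate block and 1 with the thalamus score in its place (added after the data were seen), and ranged from 0 to 6 with 1 library left out. In the other runs of these comparisons, and in all runs of the other comparisons, the number of calls was 0 in each genotype or sex comparison and from 3 to 6 for the slope. In Dp16 against wild-type, Mbp turned to 0.0282 and Cnp to 0.0168 with the tissue scores as terms, and Mbp to 0.0059 and Cnp to 0.109 in males only. Over runs that left out 1 library each, Cnp ranged from -0.10 to 0.0346, Mog from -0.0197 to 0.16, Mag from -0.0538 to 0.0939 and Opalin from -0.11 to 0.15. In 5xFAD-Dp16 against Dp16, Mobp turned to -0.0262 and Mal to -0.0449 without the libraries high in midbrain genes, Mal to -0.0070 without these and 5xFAD 4, and Mal ranged from -0.0352 to 0.18 with 1 library left out. The slope of Opalin ranged from -0.0079 to 0.0962 with 1 library left out. The cause of these turns was not tested. Replicate numbers showed no clear pairing of the samples. Deviations of libraries that share a number correlated from -0.35 to 0.35, and 9 of 24 pairs were over 0.1. Libraries with other numbers correlated from -0.49 to 0.49, and 21 of 72 pairs were over 0.1. The block left the count of calls at 0 in the genotype and sex comparisons. The sex comparisons could not be run in males only. Genes changed 1.3-fold, near the size of most differences here, were recovered in 4% of cases in the simulation of 5xFAD against wild-type. The changed genes were drawn at random from all tested genes, and for such genes differences of this size were mostly not detectable. The share for the 9 myelin genes was not simulated.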
